A study of Caenorhabditis elegans with 59 samples.

Results

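The cyp-35 subfamily of cytochrome P450 genes was examined in whole Caenorhabditis elegans adults in which the heat shock factor HSF-1 was depleted from somatic tissues. Members were taken by name: the 10 genes whose WormBase symbol starts with cyp-35 (A1 to A5, B1 to B3, C1 and D1). Of these, 9 were listed in at least 1 of the 3 expression tables, which together hold 15698 genes. The 8 h and 24 h tables of fertile strains list 6 members (cyp-35A2, A3, A4, A5, C1 and D1), and all 6 passed the filter on low values. The table of sterile strains lists 9, of which 8 passed, while cyp-35B2 did not pass and cyp-35B3 was not analysed here.

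The auxin-inducible degron (AID) system lets the plant hormone auxin trigger the degradation of a tagged protein, provided that the plant receptor TIR1 is present. All 4 strains carry the transgene ieSi57, in which the eft-3 promoter drives TIR1 in somatic cells. CA1200 carries TIR1 in an unc-119(ed3) background and has no degron. JTL611 carries the same elements plus hsf-1::aid::gfp, the degron at the endogenous hsf-1 gene. JTL667 combines hsf-1::aid::gfp and TIR1 with glp-1(e2141), which has no germline at the restrictive temperature, and JTL670 combines them with fem-3(q20) and unc-119(ed3), which makes sperm and no oocytes. CA1200 and JTL611 were young adults at 20 °C, treated for 8 h or 24 h. JTL667 and JTL670, called glp-1 and fem-3 here, were day 1 adults at 25 °C, treated for 8 h, 24 h or 48 h. Auxin (indole-3-acetic acid) was compared with plates that held its solvent ethanol (mock). The 59 libraries form 20 groups of 3, except glp-1 on auxin for 48 h with 2. The study calls its CA1200 replicates biological. For the other strains the sources used here do not say how replicates were separated, so p-values measure the spread between these libraries, which may be technical.

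Cytochrome P450 enzymes are haem monooxygenases of the endoplasmic reticulum that take electrons from a P450 reductase and add oxygen to hydrophobic molecules. In C. elegans the cyp-35 genes are known for expression in the intestine and for induction by foreign compounds, and the cyp-35A genes have also been tied to fat storage. The question here was how much of the rise with auxin was also present in CA1200, where auxin cannot deplete HSF-1, and whether longer depletion added to it. Only the fertile tables hold a strain without the degron. In the sterile strains auxin and HSF-1 depletion therefore cannot be told apart, and CA1200 has neither a 48 h time point nor a 25 °C sample.

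All 10 members are protein-coding genes on chromosome V (WBcel235, Ensembl). cyp-35A5 (WBGene00019473, 3936326 to 3938597), cyp-35B1 (WBGene00019472, 3939032 to 3941237), cyp-35B2 (WBGene00019471, 3942160 to 3944523) and cyp-35B3 (WBGene00019470, 3945353 to 3947044) lie in a row on the plus strand with gaps of 434, 922 and 829 bases. cyp-35A3 (WBGene00019565, 4022609 to 4024482) and cyp-35A4 (WBGene00016786, 4031619 to 4033446) follow on the same strand. cyp-35A1 (WBGene00015399, 7359929 to 7361773) and cyp-35A2 (WBGene00015400, 7362319 to 7364182) are neighbours on the minus strand, 545 bases apart. cyp-35C1 (WBGene00007362, 13896663 to 13898487, minus strand) and cyp-35D1 (WBGene00008829, 16069238 to 16071318, plus strand) stand alone. The close copies among them may share reads that the counting assigned or dropped, so levels of the cyp-35A and cyp-35B genes are less certain than those of genes without copies.

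Levels are counts scaled to library size (CPM) obtained by undoing the log2 and the prior count of 2 in the deposited values, and all log2 differences are on the deposited scale, whose prior understates changes of low genes. The libraries held 13100691 to 22230585 reads at 8 h, 13398410 to 23867943 at 24 h and 9131588 to 19964797 in the sterile strains, where 3 reads are worth 0.153 to 0.366 CPM. Calls required a Benjamini-Hochberg adjusted p below 0.05 together with a table mean of 2 CPM or more. The 3 tables were normalized separately, so levels were tested only within a table. The transcript of hsf-1 ranged from 31.1 to 64.1 CPM at 8 h, 40.8 to 87.0 CPM at 24 h and 15.5 to 71.7 CPM in the sterile strains, which does not check the depletion, since the degron acts on the protein. Intestine, the tissue in which cyp-35 genes are mainly known, was represented by 7 of 7 markers in every table, none at 0. For 18 of the 35 sterile libraries (fem-3 replicates 2 and 3, glp-1 replicate 3) the agent tag names the opposite treatment to the title. The titles, which the column names follow, were used.

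In CA1200, which has no degron, every measured member had a higher mean after 8 h on auxin. cyp-35A2 stood at 181, 211 and 163 CPM on auxin and at 76.9, 59.5 and 11.8 CPM on mock (replicates 1, 2 and 3). cyp-35A3 stood at 62.9, 56.1 and 49.7 CPM against 12.6, 8.12 and 1.21 CPM. cyp-35C1 stood at 111, 127 and 68.5 CPM against 27.6, 26.7 and 8.98 CPM. The auxin and mock libraries of these 3 genes did not overlap, and replicate 3 was the lowest mock library of each.

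cyp-35A4 was the least abundant of the measured cyp-35A genes (cyp-35A1 was not listed) in these mock animals, with 2.40, 1.37 and 0.143 CPM. On auxin it stood at 13.8, 18.5 and 11.9 CPM. Its log2 difference at 8 h was 3.89 (SE 0.93, 95% confidence interval 1.84 to 5.94), or 14.8-fold. The mock value of replicate 3 rests on 2 reads. Without that library the log2 differences were 2.92 for cyp-35A4, 2.46 for cyp-35A3 and 1.44 for cyp-35A2. cyp-35A5 stood at 25.2, 28.5 and 12.8 CPM on auxin against 9.61, 6.22 and 2.99 CPM on mock. cyp-35D1, whose product has been linked to the metabolism of the anthelmintic thiabendazole, differed least, with 8.01, 7.16 and 2.61 CPM against 2.31, 2.65 and 1.43 CPM. It was the only measured member whose groups overlapped at 8 h.

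The 6 log2 differences at 8 h ranged from 1.32 (cyp-35D1) to 3.89 (cyp-35A4), with a median of 2.33 against -0.01 over all 10739 genes tested. No member was called in the limma fit (0 of 6, adjusted p 0.696 for each), as in the fit with precision weights, while 5 had an unadjusted p under 0.05. Over all genes 0.00931% were called, and 422 of 10739 had an unadjusted p under 0.05. The groups of 5 of the 6 members did not overlap, all with auxin higher, against 6.38% of all genes in that direction and 7.69% in the other. Within each replicate number, auxin exceeded mock in 18 of 18 gene and replicate combinations, by 0.82 to 5.55 on the log2 scale. These combinations come from 3 library pairs and from genes that vary together, so they are not independent. The replicate numbers do not pair the libraries in this comparison, and no share over all genes is given. The summed level of the intestinal markers was also higher, at 953 to 1086 CPM on auxin against 819 to 933 CPM on mock. That of the oocyte markers was higher too, at 4666 to 4748 CPM against 4132 to 4653 CPM. The ranges of the other marker lists overlapped, and the part of tissue makeup in the result was not tested.

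At 24 h every measured member again had a higher mean on auxin in CA1200. cyp-35A2 stood at 140, 134 and 131 CPM on auxin against 70.7, 52.9 and 32.2 CPM on mock, and cyp-35A3 at 76.4, 53.6 and 72.3 CPM against 15.1, 6.87 and 2.96 CPM. cyp-35A4 stood at 8.92, 7.77 and 10.8 CPM against 2.23, 1.59 and 0.879 CPM. The auxin libraries all lay above the mock libraries for all 6 members, against 2.04% of all genes (1.54% in the other direction).

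The log2 differences at 24 h in CA1200 were 3.28 for cyp-35A3 (SE 0.59, 9.71-fold), 2.54 for cyp-35A4 (SE 0.42, 5.82-fold), 1.85 for cyp-35C1, 1.59 for cyp-35A5, 1.45 for cyp-35A2 and 0.74 for cyp-35D1. All 6 had an unadjusted p under 0.05, as did 144 of 10245 genes. cyp-35A4 and cyp-35A3 ranked 3 and 5 of these genes by p (adjusted p 0.204 and 0.268 in limma). No member was called, beside 0.00976% of all genes. Same-numbered libraries deviated together at this time point. With the replicate number as a block, cyp-35A3 (adjusted p 0.0163), cyp-35A4 (0.0205) and cyp-35C1 (0.0113) were called higher. The share of all genes called with the block is not given here, so no background stands beside these calls. The intestinal markers summed to 414 to 519 CPM on auxin and 366 to 435 CPM on mock, ranges that overlapped. The hypodermal marker (1 of 4 listed) stood at 320 to 358 CPM against 263 to 286 CPM, without overlap. The part of tissue makeup in the result was not tested.

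**Figure D1:**
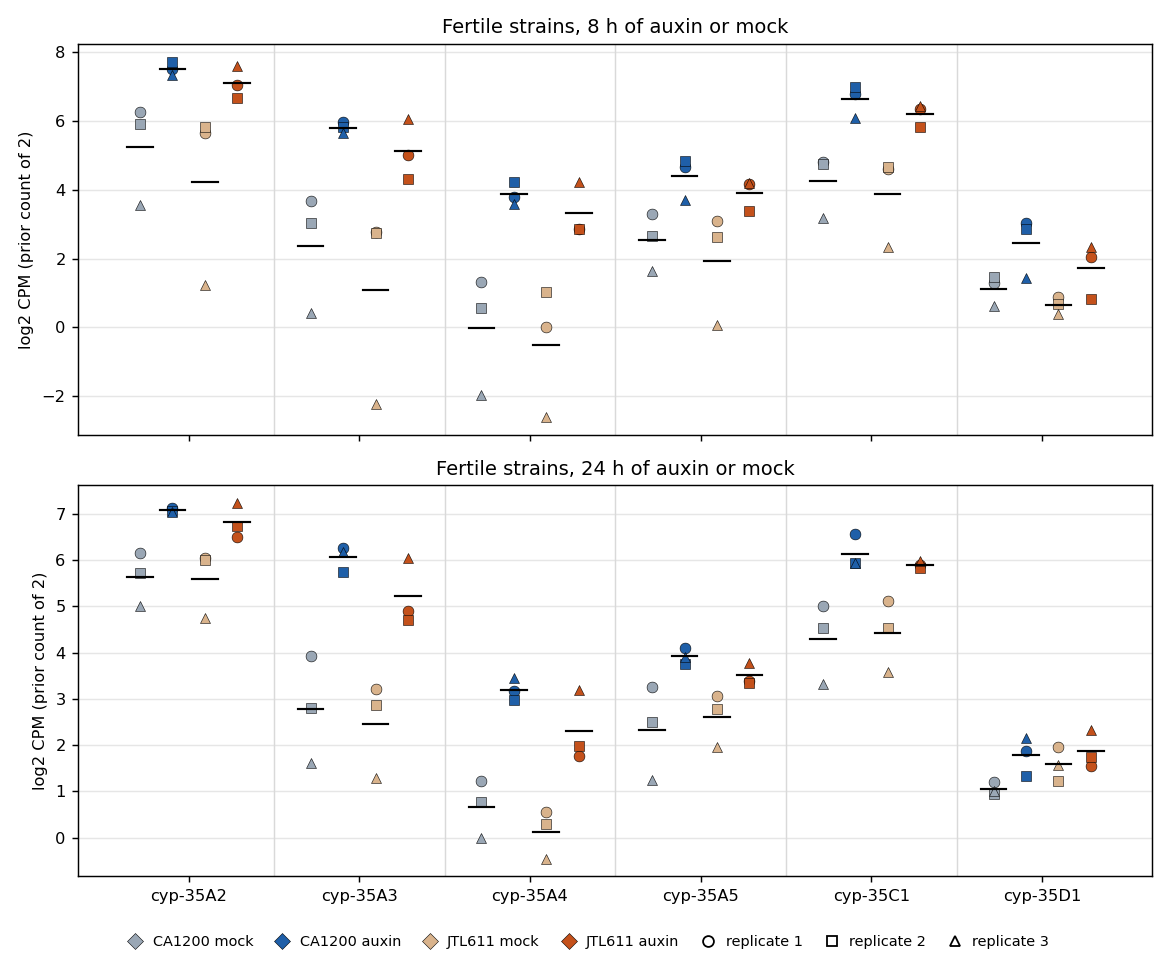
Level of the 6 measured cyp-35 genes in every library of the fertile strains after 8 h (top) and 24 h (bottom), as deposited log2 CPM. Points are libraries, with shape giving the replicate number, and bars are group means. On auxin the means of all 6 genes stand above mock in both strains, but the libraries of cyp-35D1 overlap in CA1200 at 8 h and in JTL611 at both times. Mock replicate 3 is low for most genes, for example 11.8 CPM in CA1200 and 2.22 CPM in JTL611 for cyp-35A2 at 8 h.

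JTL611, in which auxin also depletes HSF-1, showed the same direction against its own mock libraries. After 8 h cyp-35A2 stood at 131, 100.8 and 195 CPM on auxin against 50.1, 56.3 and 2.22 CPM on mock, and cyp-35A3 at 31.9, 19.9 and 67.0 CPM against 6.66, 6.57 and 0.0986 CPM. The last value is 2 reads, and without that library the log2 difference of cyp-35A3 was 2.38. The log2 differences ranged from 1.08 (cyp-35D1) to 4.04 (cyp-35A3), with 0 of 6 called (0% of all genes) and no call with precision weights. All 6 had an unadjusted p under 0.05, as did 200 of 10739 genes. The libraries of 5 of the 6 members did not overlap, again except cyp-35D1, against 2.34% of all genes (2.51% in the other direction). After 24 h the differences ranged from 0.29 (cyp-35D1) to 2.76 (cyp-35A3), with 0 of 6 called (0% of all genes). An unadjusted p under 0.05 was found for 4 members, beside 472 of 10245 genes. At that time 5 of 6 members did not overlap, against 3.08% of all genes (4.66% in the other direction). At both times auxin replicate 3 held the highest value of all 6 members.

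The 2 strains were then compared with auxin on both sides, which leaves the degron as the difference. At 8 h every member had a lower mean in JTL611, by 0.43 (cyp-35A2 and cyp-35C1) to 0.72 (cyp-35D1) on the log2 scale. None was called (0 of 6, 0% of all genes, 0 at an unadjusted p under 0.05, and 0 with precision weights), and the libraries of all 6 overlapped, where 4.86% of all genes were higher and 5.86% lower without overlap. The 95% interval of the difference was -2.71 to 1.86 for cyp-35A2 and -1.73 to 0.87 for cyp-35C1. At 24 h the differences ranged from -0.89 (cyp-35A4, interval -1.81 to 0.02) to 0.07 (cyp-35D1, interval -0.55 to 0.70), with 0 of 6 called (0% of all genes), 0 at an unadjusted p under 0.05, and all 6 overlapping (2.95% of all genes were higher and 3.43% lower without overlap). A level on auxin above that of CA1200 was thus not detected at either time.

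The difference between the auxin effects of the 2 strains was tested as an interaction. At 8 h it ranged from -0.24 (cyp-35D1) to 0.60 (cyp-35A3), with intervals as wide as -3.11 to 4.31 for cyp-35A3. The sign at 8 h depended on single libraries for all 6 members: without JTL611 mock replicate 3, cyp-35A3 stood at -1.06 and cyp-35A2 at -0.92, and without CA1200 mock replicate 3 at 1.59 and 1.43. At 24 h it lay between -0.68 (cyp-35A5, interval -1.99 to 0.63) and -0.21 (cyp-35A2, interval -1.29 to 0.86), with every mean below 0, although leaving out 1 library moved cyp-35A2, cyp-35A3 and cyp-35C1 to as high as 0.10, 0.06 and 0.12. None passed at either time (0 of 6, 0% of all genes, none at an unadjusted p under 0.05, in limma with or without precision weights). Effects of up to several-fold in either direction are within the 8 h intervals, so these data do not show that the strains respond alike.

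The mock libraries of the 2 strains overlapped for all 6 members at 8 h, with differences of -1.28 to -0.37 (1.76% of all genes were higher and 2.8% lower without overlap). At 24 h they overlapped for 5 members. cyp-35D1 was the exception, at 3.78, 2.23 and 2.84 CPM in JTL611 against 2.18, 1.82 and 1.90 CPM in CA1200 (log2 difference 0.53, adjusted p 1), where 2.27% of all genes were higher without overlap. No member was called between the mock groups (0 of 6 and 0% of all genes at each time, 0 at an unadjusted p under 0.05, 0 with precision weights).

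**Figure D2:**
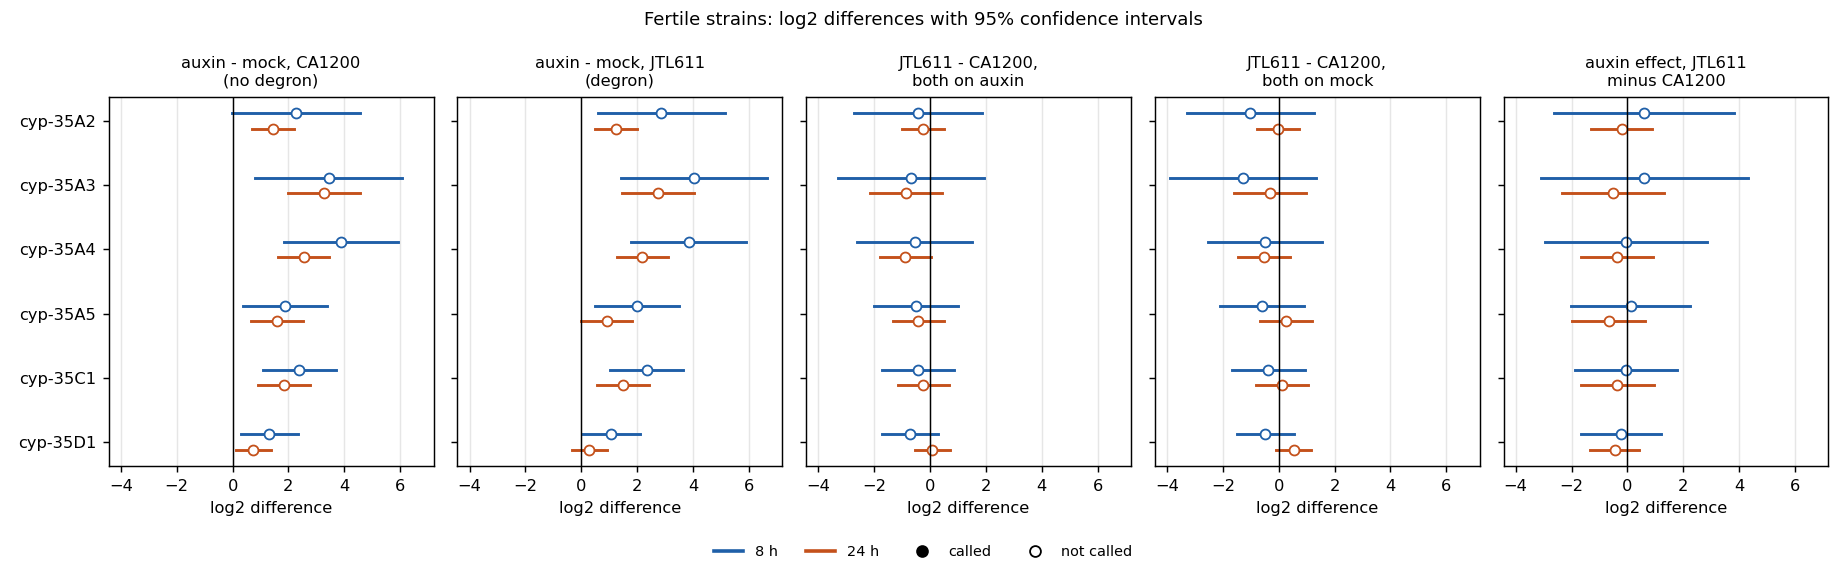
Log2 differences of the 6 measured cyp-35 genes in the fertile strains at 8 h (blue) and 24 h (orange), with 95% confidence intervals from the fit over all genes. From left to right, auxin against mock in CA1200, the same in JTL611, the strains on auxin, the strains on mock, and the difference of the auxin effects. The points of the left pair of panels lie above 0, from 0.29 to 4.04, and open symbols show that no member was called.

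In the sterile strains the same genes were joined by cyp-35A1, a gene of the inducible cyp-35A group, and by cyp-35B1, also known as dod-13, a gene under the insulin pathway factor DAF-16. In glp-1 after 8 h cyp-35B1 stood at 24.6, 30.6 and 43.4 CPM on auxin and at 15.3, 14.5 and 17.0 CPM on mock. It was the only member called at 8 h (1 of 8 higher and none lower, against 0.203% and 0.224% of all genes, log2 difference 1.03, SE 0.24, adjusted p 0.0434). All 8 members had a higher mean on auxin, with a median difference of 1.34 against 0.00 over all 14269 genes, and the groups of cyp-35A1, A5, B1 and D1 did not overlap, against 4.93% of all genes. The call was lost without any of mock replicates 1, 2 and 3 or auxin replicates 2 and 3, where the log2 difference was 0.81 to 1.10 and the adjusted p 0.0889 to 0.175. Without auxin replicate 2 cyp-35A5 was called in its place (2.41, adjusted p 0.0335).

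After 24 h in glp-1, cyp-35B1 was again the only member called (1 of 8 higher, against 0.357% of all genes). It stood at 135, 89.4 and 135.8 CPM on auxin and at 49.7, 52.1 and 60.9 CPM on mock (log2 difference 1.13, SE 0.24, adjusted p 0.0168). It was not called without auxin replicate 1 or 3 or without mock replicate 1 (adjusted p 0.0820 to 0.107). Mock replicate 1 held the fewest reads of the sterile libraries (9131588). In it 4340 listed genes had no reads, against 1504 to 2382 in the other glp-1 libraries. The libraries of 6 of 8 members, all but cyp-35A3 and cyp-35D1, did not overlap, against 7.01% of all genes, and the median difference was 1.17 against 0.07 over all genes. cyp-35A1 stood at 37.1, 19.3 and 33.1 CPM against 10.4, 5.60 and 10.9 CPM, a log2 difference of 1.73 that was not called (adjusted p 0.292).

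After 48 h in glp-1, 5 of 8 members were called higher, against 2.92% of all genes. These calls rest on the titles: grouping by the agent tag gave 0 of 8, with cyp-35D1 at -0.034, and the libraries whose labels agree, with 1 on auxin, also gave 0. The calls of cyp-35B1 at 8 h and 24 h were lost in the same way. cyp-35A1 stood at 85.7 and 30.7 CPM on auxin (replicates 1 and 3) and at 2.97, 3.12 and 1.58 CPM on mock, a log2 difference of 4.32 (SE 0.90, adjusted p 0.00376, 20.0-fold). cyp-35A5, a member of the cyp-35A group that lies next to cyp-35B1, stood at 71.9 and 34.5 CPM against 7.87, 3.33 and 4.62 CPM (log2 difference 3.30, SE 0.58, adjusted p 0.000597, 9.83-fold). Both genes were higher in each auxin library than in any mock library.

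cyp-35B1 stood at 241 and 191 CPM on auxin against 93.0, 80.4 and 78.3 CPM on mock at 48 h (log2 difference 1.36, adjusted p 0.00226). cyp-35C1 stood at 212.6 and 136.5 CPM against 74.9, 39.3 and 41.8 CPM (1.77, adjusted p 0.00701). cyp-35D1 stood at 33.1 and 26.2 CPM against 11.6, 15.3 and 7.98 CPM (1.38, adjusted p 0.0228). cyp-35A2 (1.19, adjusted p 0.0936), cyp-35A3 (3.03, adjusted p 0.112) and cyp-35A4 (2.96, adjusted p 0.135) were not called, but the groups of all 8 members did not overlap, against 14.4% of all genes.

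The median difference of the 8 members in glp-1 at 48 h was 2.36, against 0.00 over all genes. The auxin group has no replicate 2, which was the lowest library of most members in the other glp-1 groups. Without auxin replicate 1, which held the highest value of all 8 members, only cyp-35A5 was called (1 of 8, log2 difference 2.77, adjusted p 0.0433), and cyp-35A1 had a log2 difference of 3.58 with an adjusted p of 0.117. cyp-35D1 was also not called without mock replicate 3 (adjusted p 0.110) or auxin replicate 3 (0.0683). The intestinal markers summed to 1512 to 1571 CPM on auxin and 1228 to 1543 CPM on mock. The ranges of other marker sums did not overlap: body wall muscle (3 of 3 markers) stood at 1078 to 1188 against 1258 to 1838 CPM, hypodermis (2 of 4 listed) at 150 to 171 against 173 to 233 CPM, and sperm genes (6 of 6, gsp-3 and peel-1 at 0 in both groups) at 9.98 to 11.5 against 17.4 to 21.2 CPM. Their part in the result was not tested.

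In fem-3 the members also had higher means on auxin. After 8 h cyp-35C1 stood at 125, 65.7 and 77.6 CPM on auxin against 36.5, 26.0 and 24.8 CPM on mock (log2 difference 1.58, SE 0.36, adjusted p 0.0563). cyp-35A3 stood at 178, 27.3 and 49.8 CPM against 27.2, 4.23 and 5.59 CPM, a difference of 2.83 in which replicate 1 was the highest library of each group. None of the 8 was called in limma (0.021% of all genes were called higher). All 8 had an unadjusted p under 0.05, as did 575 of 14269 genes. With precision weights 1 was called, with the replicate block 5 and with only the groups compared 6. The shares of all genes called under these alternatives are not given here. The groups of 6 of the 8, all but cyp-35A1 and cyp-35B1, did not overlap, against 5.71% of all genes. The median difference was 1.61, against 0.05 over all genes.

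After 24 h in fem-3, cyp-35A4 stood at 19.6, 2.05 and 9.30 CPM on auxin and at 0.417, 0.0657 and 0.435 CPM on mock, a log2 difference of 4.26 (SE 0.99, adjusted p 0.0532). These mock values rest on 1 to 8 reads. cyp-35A3 stood at 76.4, 7.81 and 26.5 CPM against 3.86, 0.985 and 0.706 CPM (4.04, adjusted p 0.0690). No member was called (0 of 8 against 0.147% of all genes higher, 2 called with precision weights). An unadjusted p under 0.05 was found for 7 members, beside 938 of 14269 genes. Leaving out mock replicate 1 gave 1 call, cyp-35C1 (adjusted p 0.0474), and leaving out auxin replicate 2 gave cyp-35A4 (0.0414). Same-numbered libraries deviated together here, and with the replicate block 4 were called: cyp-35A2, cyp-35A3, cyp-35A4 and cyp-35C1. No share of all genes is given beside the counts of the block and of precision weights. cyp-35A1, A2, A3, A4 and C1 did not overlap between groups, against 11.8% of all genes, and all 8 means were higher on auxin.

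After 48 h in fem-3, 2 of 8 members were called higher, against 0.897% of all genes. Grouping by the agent tag ended both calls, with cyp-35A3 at -1.45 and cyp-35C1 at -0.38, and the libraries whose labels agree, 1 of each treatment, gave 0. cyp-35C1 stood at 33.7, 14.5 and 25.2 CPM on auxin and at 7.30, 5.31 and 6.69 CPM on mock (log2 difference 1.84, SE 0.36, adjusted p 0.00314). cyp-35A3 stood at 17.1, 1.48 and 5.29 CPM against 0.495, 0 and 0 CPM, which is 8 reads in mock replicate 1 and none in the other mock libraries. Its fitted log2 difference of 4.65 (SE 0.97, adjusted p 0.00539) depends on the prior: with 1 CPM added before the log it was 2.52 (adjusted p 0.0872), and with precision weights 6.28 (adjusted p 0.503).

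Leaving out auxin replicate 1 ended the call of cyp-35A3 in fem-3 at 48 h (log2 difference 3.80, adjusted p 0.0682) and left 1 member called, while 4 were called without auxin replicate 2. cyp-35B1 and cyp-35D1, both called in glp-1 at this time, had differences of 0.14 (interval -0.35 to 0.63) and 0.05 (interval -0.62 to 0.71) in fem-3. The groups of 4 members (cyp-35A2, A3, A5 and C1) did not overlap, against 17.1% of all genes, and the median was 1.58. The intestinal markers summed to 637 to 671 CPM on auxin and 441 to 494 CPM on mock, ranges that did not overlap. Nor did those of hypodermis (14.0 to 18.4 on auxin against 26.7 to 44.0 CPM), germline (653 to 695 against 773 to 793 CPM), oocyte (91.4 to 107 against 79.3 to 89.0 CPM) and sperm markers (2382 to 2500 against 2111 to 2324 CPM). Their part in the result was not tested.

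**Figure D3:**
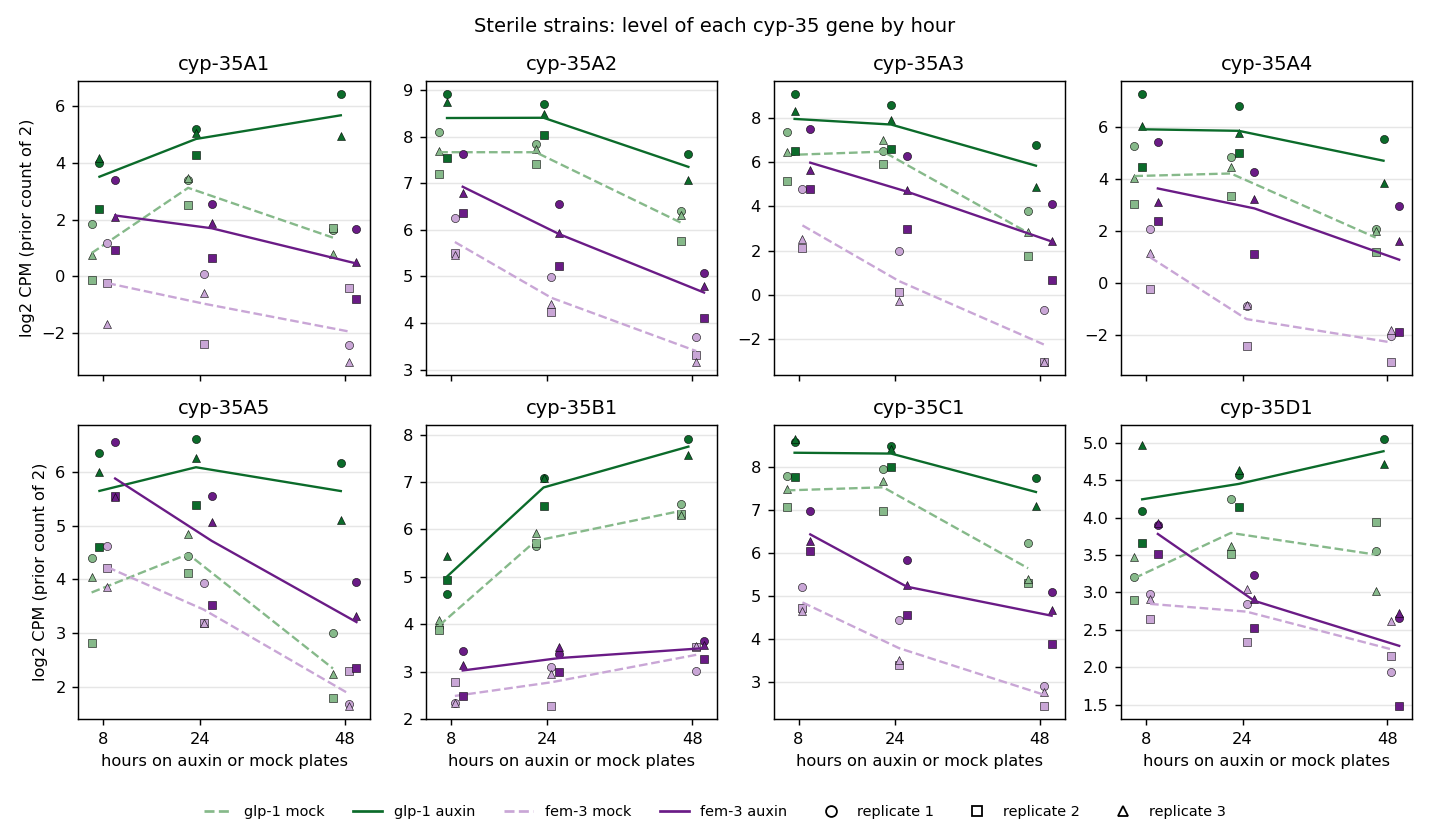
Deposited log2 CPM of the 8 tested cyp-35 genes in the sterile strains after 8, 24 and 48 h. Points are libraries, with shape giving the replicate number, solid lines join the auxin means and dashed lines the mock means of glp-1 (green) and fem-3 (purple). cyp-35B1 is at 78.3 to 93.0 CPM in glp-1 mock at 48 h and 14.5 to 17.0 CPM at 8 h, whereas cyp-35A3 is at 3.28 to 13.6 CPM and 34.8 to 164 CPM.

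Whether the auxin effect itself differed between 48 h and 8 h was tested within each strain. In glp-1 all 8 differences of effect were above 0, with a median of 1.03, from 0.32 (cyp-35B1) to 1.62 (cyp-35A1, interval -0.86 to 4.11). None was called (0 of 8, 0 at an unadjusted p under 0.05, 0 with precision weights), beside 1.81% of all genes called. Leaving out 1 library moved the difference to as low as 0.03 (cyp-35A2), 0.04 (cyp-35D1) and 0.14 (cyp-35B1). The 48 h auxin group has no replicate 2. At 8 h that replicate held the lowest value of 7 members on auxin and 8 on mock, and at 48 h of 5 on mock. The part of its absence in these differences was not tested. In fem-3 the differences ranged from -0.89 (cyp-35D1, interval -1.83 to 0.05) to 1.82 (cyp-35A3, interval -0.99 to 4.62), with a median of 0.04, and 5 of 8 were above 0. None was called there either (0 of 8, 0 at an unadjusted p under 0.05, 0 with precision weights, 0.533% of all genes). The sign in fem-3 depended on single libraries for cyp-35A1 (-0.69 to 0.78 with 1 library left out), A2, A4, A5 and C1.

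Levels were also compared between 8 h and 48 h within each treatment. In glp-1 on mock, 4 of 8 members fell from 8 h to 48 h, against 12.7% of all genes, and 1 rose, against 10.1%. cyp-35A3 fell from 164, 34.8 and 87.0 CPM to 13.6, 3.28 and 7.09 CPM, by 3.51 on the log2 scale (SE 0.97, adjusted p 0.00740). cyp-35C1 fell by 1.81 (adjusted p 0.000278), cyp-35A2 by 1.51 (adjusted p 0.00237) and cyp-35A5 by 1.41 (adjusted p 0.0455). The call of cyp-35A5 was lost in 4 of 6 fits that left out 1 library (mock 8 h replicates 1 and 3, mock 48 h replicates 2 and 3), with log2 differences of -1.36 to -1.09. cyp-35B1 rose by 2.42 (SE 0.24, adjusted p 7.06e-09), with every 48 h library above every 8 h library.

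In fem-3 on mock, 5 of 8 members fell over the same interval (9.21% of all genes) and cyp-35B1 rose by 0.87 (adjusted p 0.0101, 8.14% of all genes called higher). The largest of these falls was that of cyp-35A3, by 5.37 on the log2 scale to the level of 0 to 8 reads. cyp-35A5 fell from 24.4, 18.4 and 14.4 CPM to 3.09, 4.79 and 3.02 CPM (by 2.35, adjusted p 0.00123). The calls of cyp-35A4 and cyp-35B1 were each lost in 3 of 6 fits that left out 1 library. For cyp-35A4 these left out mock 8 h replicate 1 or 3 or mock 48 h replicate 2, and for cyp-35B1 mock 8 h replicate 1 or mock 48 h replicate 2 or 3, with adjusted p between 0.0505 and 0.111 for cyp-35A4 and between 0.0512 and 0.0524 for cyp-35B1. The summed intestinal markers were 1647 to 1839 CPM in glp-1 mock and 639 to 750 CPM in fem-3 mock at 8 h, above the mock ranges at 48 h. The hypodermal sums went from 3544 to 4729 CPM down to 173 to 233 CPM in glp-1 and from 729 to 858 CPM down to 26.7 to 44.0 CPM in fem-3, and body wall muscle in fem-3 from 1033 to 1948 CPM down to 368 to 575 CPM. Their part in these falls was not tested. In bulk samples fewer cells of a type and less RNA per cell cannot be told apart.

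On auxin, a comparison added after the values were seen, only cyp-35B1 rose from 8 h to 48 h in glp-1 (1 of 8, against 13.5% of all genes, log2 difference 2.74, SE 0.27, adjusted p 4.46e-09). It had risen on mock as well. cyp-35A1 was at 15.8, 5.099 and 17.9 CPM after 8 h and at 85.7 and 30.7 CPM after 48 h, without overlap, but its difference of 2.17 was not called (SE 0.90, adjusted p 0.0738). cyp-35A5 was at 80.9, 24.1 and 63.5 CPM after 8 h and 71.9 and 34.5 CPM after 48 h, a difference of -0.00 (interval -1.18 to 1.18), while its mock level fell. The means of cyp-35A2, A3, A4 and C1 were lower at 48 h than at 8 h on auxin, by 0.91 to 2.11, without a call. Without auxin 8 h replicate 2, 3 members were called, with cyp-35A2 (-1.48) and cyp-35C1 (-1.20) lower, and without auxin 8 h replicate 3, 2 were, with cyp-35D1 (1.01) higher.

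In fem-3 on auxin none rose and 6 of 8 fell from 8 h to 48 h, against 11.3% of all genes (cyp-35A2, A3, A4, A5, C1 and D1). cyp-35A2 went from 197, 81.9 and 111 CPM to 33.4, 17.1 and 27.5 CPM, a fall of 2.27 on the log2 scale (adjusted p 1.89e-05). cyp-35A5 fell by 2.67 (adjusted p 0.000218) and cyp-35C1 by 1.89 (adjusted p 0.000169). The call of cyp-35A3 (by 3.56) was lost without auxin 8 h replicate 1 (adjusted p 0.0653) or auxin 48 h replicate 2 (0.0702). That of cyp-35A4 (by 2.74, adjusted p 0.0424), whose groups overlapped, was lost in 4 of 6 such fits, those without auxin 8 h replicate 1 (adjusted p 0.271) or 3 (0.0554) or auxin 48 h replicate 2 (0.393) or 3 (0.0507). For fem-3 on auxin the intestinal marker sum was 653 to 739 CPM after 8 h, which overlapped the range after 48 h given earlier.

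**Figure D4:**
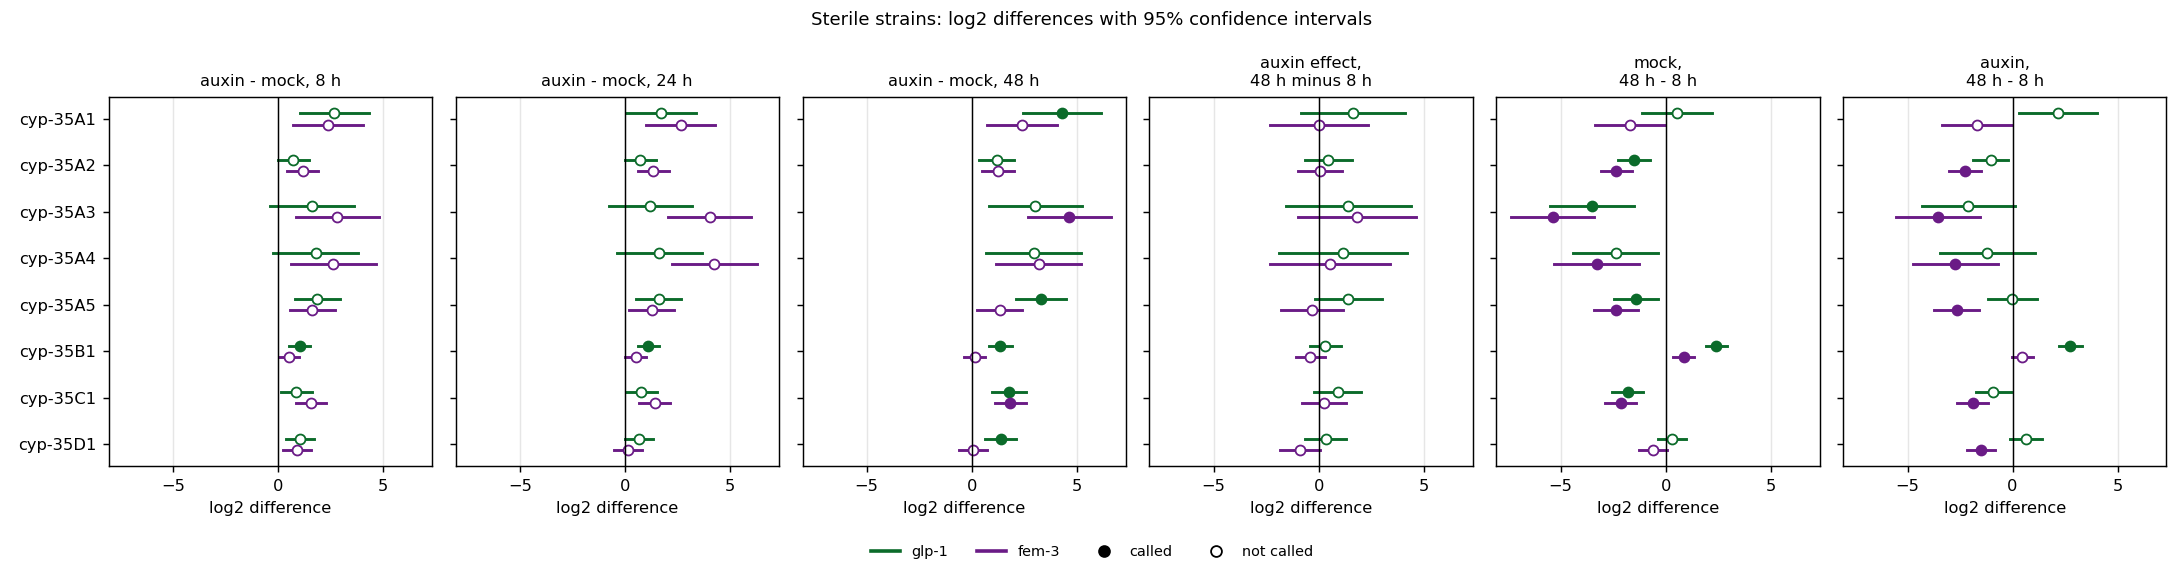
Log2 differences of the 8 tested cyp-35 genes in glp-1 (green) and fem-3 (purple), with 95% confidence intervals from the fit over all genes. From left to right, auxin against mock at 8, 24 and 48 h, the change of that effect from 8 h to 48 h, and the change of the mock and of the auxin level from 8 h to 48 h. Filled symbols are called. In the auxin panels at 48 h, 5 members are filled for glp-1 and 2 for fem-3, and in the panel of the change of effect none is.

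Between the sterile strains on mock at 48 h, 7 of 8 members were called higher in glp-1, in a comparison in which 29.7% of all genes were called higher and 40.8% lower, with a median over all genes of -0.25 on the log2 scale. The log2 differences of the 7 ranged from 1.27 (cyp-35D1) to 5.04 (cyp-35A3, whose fem-3 level was at 0 to 8 reads). The fem-3 levels of cyp-35A1 and cyp-35A4 were at 0 to 11 and 0 to 3 reads. cyp-35B1 stood at 93.0, 80.4 and 78.3 CPM in glp-1 and at 7.92, 11.3 and 11.5 CPM in fem-3 (3.03, adjusted p 3.68e-12). cyp-35A5 did not follow (0.47, interval -0.59 to 1.52, adjusted p 0.414) and overlapped. The intestinal markers summed to 1228 to 1543 CPM in glp-1 and 441 to 494 CPM in fem-3. The germline markers (5 of 5 listed) summed to 1.08 to 1.86 CPM in glp-1, with him-3 at 0, and to 773 to 793 CPM in fem-3. The part of tissue makeup in the strain difference was not tested.

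The auxin effect at 48 h was compared between glp-1 and fem-3. cyp-35A5 (1.97, interval 0.38 to 3.55), cyp-35D1 (1.34, interval 0.34 to 2.33) and cyp-35B1 (1.22, interval 0.48 to 1.95) had the larger effect in glp-1 at an unadjusted p under 0.05, but none passed after adjustment (0 of 8 called, adjusted p 0.167 for cyp-35B1, 0.323 for cyp-35D1 and higher for cyp-35A5, 0 with precision weights, 0.399% of all genes called). Over all genes 1260 of 14269 had an unadjusted p under 0.05 in this comparison. cyp-35A2 and cyp-35C1 had nearly equal effects, each with a difference of -0.06 and intervals of -1.18 to 1.06 and -1.16 to 1.04.

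cyp-35B2, which lies between cyp-35B1 and cyp-35B3, did not pass the filter in the sterile strains and was not tested. In glp-1 it stood at 7.56 and 2.42 CPM on auxin and at 0.557, 0.740 and 0.760 CPM on mock after 48 h, without overlap. In fem-3 it stood between 0 and 0.899 CPM in all libraries.

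Per kilobase of exon, cyp-35A2 and cyp-35C1 had the highest levels in most groups. In glp-1 mock at 8 h the means per kilobase were 132 CPM for cyp-35A2, 116 for cyp-35C1 and 60.0 for cyp-35A3, and 1.25 for cyp-35A1 and 0.416 for cyp-35B2 at the low end. In glp-1 on auxin at 48 h cyp-35B1 led with 131 CPM per kilobase, ahead of cyp-35C1 (114) and cyp-35A2 (105), and the libraries of these 3 genes overlapped in level. In CA1200 on auxin at 8 h the order was cyp-35A2 (117), cyp-35C1 (66.6), cyp-35A3 (35.4), cyp-35A5 (12.9), cyp-35A4 (9.50) and cyp-35D1 (3.76).

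The members varied together between libraries of the same group. After subtraction of the group means, the correlation between pairs of members had a median of 0.94 over the 12 libraries at 8 h (15 pairs), 0.87 over the 12 at 24 h (15 pairs) and 0.70 over the 35 sterile libraries (28 pairs). cyp-35A2 and cyp-35A3 were the closest pair in each table (0.99, 0.95 and 0.94). The pairs share libraries, and their depth with them, so this is a description only. Mock replicate 3 held the lowest value of all 6 members in both fertile strains at 8 h and of 5 members in each at 24 h. On auxin, replicate 3 was the lowest of all 6 in CA1200 at 8 h, and the highest of all 6 in JTL611 at both times. glp-1 replicate 2 was the lowest of all 8 members on mock at 8 h and on auxin at 24 h, and fem-3 replicate 2 of all 8 on auxin at 24 h and 48 h.

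Other genes of foreign compound handling were counted by fixed lists: the redox partners of P450 enzymes (emb-8, the P450 reductase, and the cytochromes b5 cytb-5.1 and cytb-5.2), 10 regulators (nhr-8, nhr-48, daf-12, nhr-49, mdt-15, ahr-1, aha-1, skn-1, daf-16 and elt-2), 14 P-glycoproteins, which export compounds from cells, and 64 other cyp genes. With auxin in glp-1 at 48 h, 0 of 3 redox partners and 0 of 10 regulators were called. Of 14 P-glycoproteins 2 rose, pgp-1 (log2 difference 1.86) and pgp-9 (0.74). Of the 53 other cyp genes tested, 4 rose (cyp-13A4 by 1.82, cyp-13A5 by 1.66, cyp-29A3 by 1.36 and cyp-13A2 by 1.04). Another 4 fell: cyp-25A1 by 1.51, cyp-25A2 by 0.99, cyp-37A1 by 0.83 and cyp-14A5 by 0.73. Over all genes 2.92% were called higher and 1.94% lower in this comparison.

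The medians of the 4 lists in glp-1 at 48 h were 0.06, 0.01, -0.10 and -0.02 in that order, beside 2.36 for the cyp-35 genes. At 8 h in glp-1 only pgp-1 (0.77) was called among these lists, and at 24 h pgp-1 (0.92), cyp-13A5 (1.68), cyp-37B1 (1.10), cyp-13A2 (0.88) and cyp-29A3 (0.88) rose while cyp-25A2 fell by 0.51. Over all genes 0.203% were called higher and 0.224% lower at 8 h, and 0.357% and 0.301% at 24 h. In fem-3 at 48 h 3 P-glycoproteins rose (pgp-1 by 1.08, pgp-8 by 1.02 and pgp-9 by 0.91), cyp-43A1 rose by 0.58 and cyp-34A8 fell by 0.75, with 0 redox partners and 0 regulators called. Over all genes 0.897% were called higher and 1.33% lower there.

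pgp-1 also rose in CA1200 after 8 h on auxin (log2 difference 2.10, SE 0.25, adjusted p 0.0417), and was the only gene of the 10739 tested to be called there. At 24 h that was T16G1.6 (2.90, adjusted p 0.0329). In glp-1 the auxin effect on pgp-1 was larger at 48 h than at 8 h, by 1.08 (SE 0.25, adjusted p 0.0183). None of the cyp-35 genes passed that test, although their median difference was 1.03. Whether pgp-1 differed from them was not tested. In fem-3 the effects on pgp-8 (by 1.33, adjusted p 0.0324) and pgp-9 (by 1.15, adjusted p 0.0326) were larger at 48 h. These results were chosen after their values were seen.

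In the mock comparison of 48 h with 8 h, 4 P-glycoproteins fell in glp-1 and 6 in fem-3, where pgp-11 rose. Of the other cyp genes tested, 20 rose and 4 fell in glp-1, and 10 rose and 14 fell in fem-3. Over all genes 10.1% were called higher and 12.7% lower in glp-1, and 8.14% higher and 9.21% lower in fem-3. The median of the other cyp genes was 0.70 in glp-1 and 0.01 in fem-3, beside -1.46 and -2.24 for the cyp-35 genes. Of the regulators nhr-49 rose in glp-1 and in fem-3, and nhr-8 fell in fem-3, by 0.62. emb-8 fell in fem-3, by 0.44. Between glp-1 and fem-3 on mock at 48 h, 3 of 3 redox partners, 5 of 10 regulators, 12 of 14 P-glycoproteins and 30 of 53 other cyp genes were called higher in glp-1, and 1 regulator (nhr-48) and 8 other cyp genes lower, beside 29.7% and 40.8% of all genes.

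The genes most like the cyp-35 pattern were found by correlating each of 12339 other genes with the mean standardized profile of the 8 tested members over the 12 group means of the sterile table. The 5 highest were cest-33 (r 0.97), cest-35.2 (0.95), irg-4 (0.95), mfsd-13.2 (0.95) and F55G11.2 (0.94). Their symbols stand for carboxylesterase, infection response gene and major facilitator superfamily domain. All 5 were lowest in fem-3 on mock at 48 h and highest in glp-1 on auxin at 8 h or 24 h. Of the members themselves cyp-35A4 (0.97) and cyp-35C1 (0.97) were closest to their own mean and cyp-35B1 (0.72) was farthest. The group means share the differences between strains and hours, so the values are a description.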

How the data were processed

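The authors aligned paired-end reads of poly(A) libraries with STAR to WBcel235, counted genes with featureCounts, removed genes under 1 CPM in most samples and, per the study's methods, used edgeR. The deposited values are log2 CPM with a prior count of 2. Undoing both gave CPM, and 100% of values were then within 0.1 of whole reads. A column of the authors' calls in the 24 h table was not used. Genes that reached 1 CPM in 25% or more of a table's libraries were tested (10739, 10245 and 14269) with limma 3.58.1 (R 4.3.3; lmFit, eBayes with trend, group means, all groups of a table in 1 fit), with two-sided p-values adjusted by Benjamini-Hochberg across every tested gene of the table. limma intervals and adjusted p-values are from these fits, which were tested on simulated data. Levels per kilobase used exon lengths of Ensembl release 115. The members and lists were chosen with earlier results of these data known. Genes named are all members, listed genes called where a member was called, and the 5 most similar genes. Same-numbered libraries were taken as paired where every pair of deviations from the group means correlated above 0.1: CA1200 auxin and mock at 24 h (0.22 to 0.71), JTL611 auxin and mock at 24 h, the strains on mock at 24 h, the strains on auxin at 8 h and 24 h, and fem-3 auxin and mock at 24 h (0.12 to 0.23). Alternatives were 1 CPM added before the log, no filter, no limit on the mean, only the groups compared, a replicate block, median centring, precision weights from recovered reads, the agent tag, libraries with agreeing labels, and each library left out. Added after seeing the data were the block with precision weights and the auxin comparison of 48 h with 8 h. Floors of 3 reads cover counting error only, since reads amplified by PCR are not independent molecules.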

Additional observations from a re-analysis of the deposited data

How the results depend on the processing

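The fertile comparisons kept 0 members called under every setting except CA1200 auxin against mock at 24 h, where the replicate block gave 3, alone or with precision weights. In the paired analysis of the sterile strains the replicate block raised the members called for auxin against mock at 8, 24 and 48 h to 3, 4 and 8 in glp-1 and 5, 4 and 6 in fem-3, and in glp-1 on auxin, 48 h against 8 h, to 5. The block with precision weights gave 8, 7 and 8, then 5, 5 and 5, and 6. Neither changed another count by over 1.5 times. Of these sterile comparisons the numbers pair the libraries only in fem-3 at 24 h. Every library correlated best with its own number at 8 h in both strains and in fem-3 at 24 h, but not in glp-1 at 24 h or fem-3 at 48 h. At 8 h these correlations were only 0.029 to 0.059 in glp-1 and 0.084 to 0.142 in fem-3. The 2 pairs of glp-1 at 48 h also matched their own number, with the same correlation of 0.0135. Deviations from a mean of 2 libraries mirror each other, so that match is 1 outcome. With 1 CPM added before the log, 2 members were called in glp-1 at 8 h, 1 and 3 in fem-3 at 8 h and 24 h, and 3 in the auxin time comparison of glp-1. With only the groups compared, the counts were 2, 0 and 8 in glp-1, 6, 6 and 4 in fem-3, and 6 in that time comparison. With precision weights they were 2 and 2 in glp-1 at 8 h and 24 h, 1, 2 and 1 in fem-3, 3 in the fem-3 mock time comparison and 5 in glp-1 on auxin over time. With the agent tag, 0 members were called for auxin in glp-1 at each hour and in fem-3 at 48 h, and 1 and 3 in the mock time comparisons of glp-1 and fem-3 and 1 in fem-3 on auxin over time. The log2 differences then reversed for cyp-35D1 in glp-1 at 48 h (-0.034) and for cyp-35A3 (-1.45) and cyp-35C1 (-0.38) in fem-3 at 48 h. The tag mixes libraries titled auxin and mock. With only agreeing labels, which leaves fewer libraries, the same auxin counts were 0, and 1 and 0 members were called in the mock time comparisons of glp-1 and fem-3 and 0 in fem-3 on auxin over time. In the pairs of libraries whose labels agree, the tested members were higher in the library titled auxin in 64 of 64 combinations, and in 67 of 72 where they differ. These combinations come from 8 and 9 library pairs matched by replicate number. The members vary together, so the combinations are not independent, and no share over all genes is given. The counts therefore do not settle which label is right. Leaving out 1 library gave 0 to 1 members in glp-1 at 8 h and at 24 h, 1 to 5 at 48 h, 0 to 1 in fem-3 at 24 h, 1 to 4 at 48 h, and 1 to 3 in glp-1 on auxin over time. Apart from what the settings state, the cause of these moves was not tested. The shares of all genes called under the alternatives are not given here, so the counts of members have no background beside them. Depth limits cyp-35A1, cyp-35A3 and cyp-35A4 in fem-3 mock at 48 h, which rest on 0 to 11, 0 to 8 and 0 to 3 reads. It also limits cyp-35A1 and cyp-35A4 in fem-3 mock at 24 h, which rest on 1 to 10 and 1 to 8 reads.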
